A study of Mus musculus with 17 samples.

Results

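Immediate early genes are switched on within minutes of synaptic activity, without new protein synthesis, and 10 of them were followed here in the dentate gyrus of mice lacking FOXO transcription factors. Fos, Fosb, Junb, Egr1, Egr2, Egr3, Egr4, Arc, Nr4a1 and Npas4 were taken as members wherever a probe set carried one of these symbols alone in the platform annotation. This gave 12 probe sets, with 2 each for Egr2 and Egr3 and 1 for each other gene, out of 45037 mouse probe sets. Together the table covers 18193 genes with a probe set of their symbol alone.

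RNA from laser-captured dentate gyrus, taken as the tissue from the study's methods because the labels name only brain, had been hybridised to Affymetrix mouse arrays. The groups were 8 arrays labelled FOXO 1/3/4 KO and 7 arrays labelled WT, and 1 further KO and 1 further WT array, of the marks 433 and 437, carry the added mark CA13, a mark without explanation in the sources. In the KO mice floxed Foxo1, Foxo3 and Foxo4 were deleted by a human GFAP promoter-driven Cre, which acts in progenitors shared by neurons and glia, on a mixed FVB and B6 background. Neither age, sex nor handling before tissue collection is given for these arrays, and each mark is read as 1 animal although the sources do not state it, so a p-value is set against array-to-array spread that may be partly technical.

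The proteins of these genes fall into a few roles. Fos, Fosb and Junb are subunits of the AP-1 transcription factor, Egr1 to Egr4 are zinc finger transcription factors, Nr4a1 is an orphan nuclear receptor, and Npas4 is a neuron-restricted transcription factor that depends on calcium influx. Arc differs from the rest in being an effector, a protein of dendritic spines that takes part in removing AMPA receptors from the synapse. Calcium entering an active neuron reaches their promoters mainly through CREB, which binds the cAMP response element, and through SRF with its ternary complex partners, which bind the CArG box. Dentate granule neurons fire sparsely, and the transcripts of this family are widely used to mark the few neurons that were recently active.

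Signals are the authors' values, and levels below are log2(signal + 32) after quantile normalization, a scale whose floor is 5. The brightest Foxo1 probe set lay at 7.33 to 9.44 in the KO arrays and 12.33 to 13.94 in the WT arrays. It was 9.82 in the WT CA13-marked array of 437, below every unmarked WT array, and 8.22 in the KO CA13-marked array of 433. One KO array, labelled 433, stood apart. Its mean over 10 dentate granule neuron markers was 8.13, against 11.32 to 11.75 in the other 14 unmarked arrays. Its mean over 11 of 12 markers of CA pyramidal neurons, the principal cells of the neighbouring hippocampal fields, was 10.51, against 7.96 to 8.69. The CA13-marked array of 437 had the same marker profile as the array labelled 433, at 8.05 for granule markers and 10.36 for CA markers, whereas the CA13-marked array of 433 had the granule profile, at 11.57 and 8.06. The order of the 2 arrays of 433 is thus opposite to that of the 2 arrays of 437, and whether the labels of the arrays of 433 were exchanged was not tested. Differences between KO and WT are therefore given with and without the array labelled 433, and for the members it moves most also with the CA13-marked array of 433 in its place. By the numbers in their labels, the 15 unmarked arrays fall into a larger series of 6 KO and 5 WT arrays and a smaller one with 2 of each.

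The stretches before the starts of 4 members are shown because Fos, Egr2 and Nr4a1 varied together over the arrays, as described below, and because Fosb, the closest relative of Fos, did not. Each is the 250 bases before the annotated start in RefSeq (GRCm38.p6), read on the strand of the gene, 5′ to 3′. Capitals mark the core of the cAMP response element, TGACG, or CGTCA on the other strand, and in Egr2 also the CArG box.
Fos, chr12:85473640-85473889, plus strand: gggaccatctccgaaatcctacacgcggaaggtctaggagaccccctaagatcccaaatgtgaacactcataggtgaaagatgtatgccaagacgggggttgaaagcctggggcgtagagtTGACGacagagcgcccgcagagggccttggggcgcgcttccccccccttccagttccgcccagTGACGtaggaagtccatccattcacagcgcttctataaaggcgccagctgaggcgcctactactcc
Egr2, chr10:67537619-67537868, plus strand: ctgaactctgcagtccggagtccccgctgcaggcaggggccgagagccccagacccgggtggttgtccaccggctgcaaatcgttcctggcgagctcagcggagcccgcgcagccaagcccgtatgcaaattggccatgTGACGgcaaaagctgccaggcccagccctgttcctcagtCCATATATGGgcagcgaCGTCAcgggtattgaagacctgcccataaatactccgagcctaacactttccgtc
Nr4a1, chr15:101266596-101266845, plus strand: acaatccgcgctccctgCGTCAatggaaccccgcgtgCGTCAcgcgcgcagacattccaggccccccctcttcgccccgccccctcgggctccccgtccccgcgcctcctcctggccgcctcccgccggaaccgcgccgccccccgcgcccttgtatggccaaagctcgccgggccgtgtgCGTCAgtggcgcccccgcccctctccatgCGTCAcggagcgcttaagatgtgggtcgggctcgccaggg
Fosb, chr7:19310046-19310295, minus strand: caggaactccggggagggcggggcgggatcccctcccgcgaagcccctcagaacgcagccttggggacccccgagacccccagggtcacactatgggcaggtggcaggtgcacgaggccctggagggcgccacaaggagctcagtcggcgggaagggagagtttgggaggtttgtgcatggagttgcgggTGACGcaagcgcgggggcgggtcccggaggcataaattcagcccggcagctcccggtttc
CRE cores lay 129 and 66 bases before the start in Fos, 111 and 55 bases before it in Egr2, 233, 213, 69 and 40 bases before it in Nr4a1, and 60 bases before it in Fosb. The CArG box of Egr2 lay 72 bases before the start, between its CRE cores. All 7 members for which RefSeq windows were used here hold at least 1 CRE core in at least 1 window. These members have 11 windows, and Egr2 alone has more than 1. Some of the Egr2 windows hold no CRE core, and the one shown holds both CRE cores and the CArG box. The genome shares below are per window, so the count of members cannot be set directly against them. Npas4 and Egr4 hold 2 and Junb holds 1, while no window was used for Egr1, Egr3 or Arc. In the same 250 bases before 32851 starts over the genome, 17.8% hold at least 1 CRE core, 3.90% hold at least 2, 0.137% hold at least 4 and 1.47% hold a CArG box. These matches describe letters in a window and not binding, and sites farther than 250 bases before a start were not searched.

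Egr1 was the member with the clearest difference between the genotypes, although it did not pass the test over the whole table. Egr1, which is often used as a marker of recent neuronal activity, lay at 10.67 to 12.01 with a median of 11.03 in the 8 KO arrays and at 9.95 to 10.90 with a median of 10.58 in the 7 WT arrays. The groups overlapped, with 5 of 8 KO arrays above the highest WT array and 4 of 7 WT arrays below the lowest KO array. The mean was 11.09 ± 0.42 (SD, n = 8) in KO and 10.42 ± 0.41 (SD, n = 7) in WT, a log2 fold change of 0.67 (standard error, SE, 0.20, 95% interval 0.25 to 1.09), or 1.59-fold. Its unadjusted p was 0.00358 and its adjusted p was 1.00 (limma, Benjamini-Hochberg over 45037 probe sets), and the two-sided exact permutation test over all 6435 splits gave p = 0.00326.
The highest Egr1 value belonged to the array labelled 433. Without it the KO arrays lay at 10.67 to 11.27 and the log2 fold change was 0.54 (SE 0.17, 95% interval 0.19 to 0.89, limma), with an exact permutation p of 0.00758. With the CA13-marked array of 433 in its place the log2 fold change was 0.44 (SE 0.18, adjusted p = 1.00, limma). The difference had the same sign in both array series, with log2 fold changes of 0.65 (SE 0.23) in the larger and 0.48 (SE 0.18) there without the array labelled 433. It was 0.70 in the 4 arrays of the smaller (SE 0.32, 95% interval -0.09 to 1.48, limma), an interval that includes 0. Over the 14 arrays without 433, Egr1 levels moved with the mean of 5 of 6 oligodendrocyte markers (r = 0.562, permutation p = 0.0375, and rho = 0.455, permutation p = 0.105), although r was 0.191 without the arrays farthest from the median of the marker mean. That mean was 10.25 to 11.20 in the 7 KO arrays and 9.60 to 10.82 in the 7 WT arrays, none of its markers was at 0, and its part in the difference was not tested. This is 1 of 80 correlations of members with marker means and the Gapdh ratio computed over these arrays, with p-values unadjusted, of which 3 had a permutation p under 0.05 for r. Another was Egr4 with the granule markers (r = 0.567, permutation p = 0.0339, and rho = 0.481, permutation p = 0.0840), where r was 0.213 without the arrays farthest from the median.

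Of the 12 member probe sets, 0 passed the adjusted test, while 6 of the 45037 probe sets tested did, or 0.0133%. SAM and the methods' t-test also called 0 of the 12. At an unadjusted p under 0.05 in limma, Egr1 alone was higher in KO, 1 of 12 against 1.54% of all probe sets, and 0 members were lower. Without the array labelled 433 the adjusted count was again 0, against 0.0133% of all probe sets, and Egr1 was again the only one higher at an unadjusted p under 0.05, against 1.73%. The KO and WT ranges overlapped for all 12, whereas they did not overlap for 0.0289% of all probe sets, and without the array labelled 433 they again overlapped for all 12, against 0.0644% of all probe sets not overlapping. All 12 log2 fold changes were above 0, with a median of 0.22, against 50.5% above 0 and a median of 0.00 for all probe sets. Without the array labelled 433, 11 of 12 were above 0 and the median was 0.15. Since the members vary together, these 12 values do not count as independent.

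**Figure D1:**
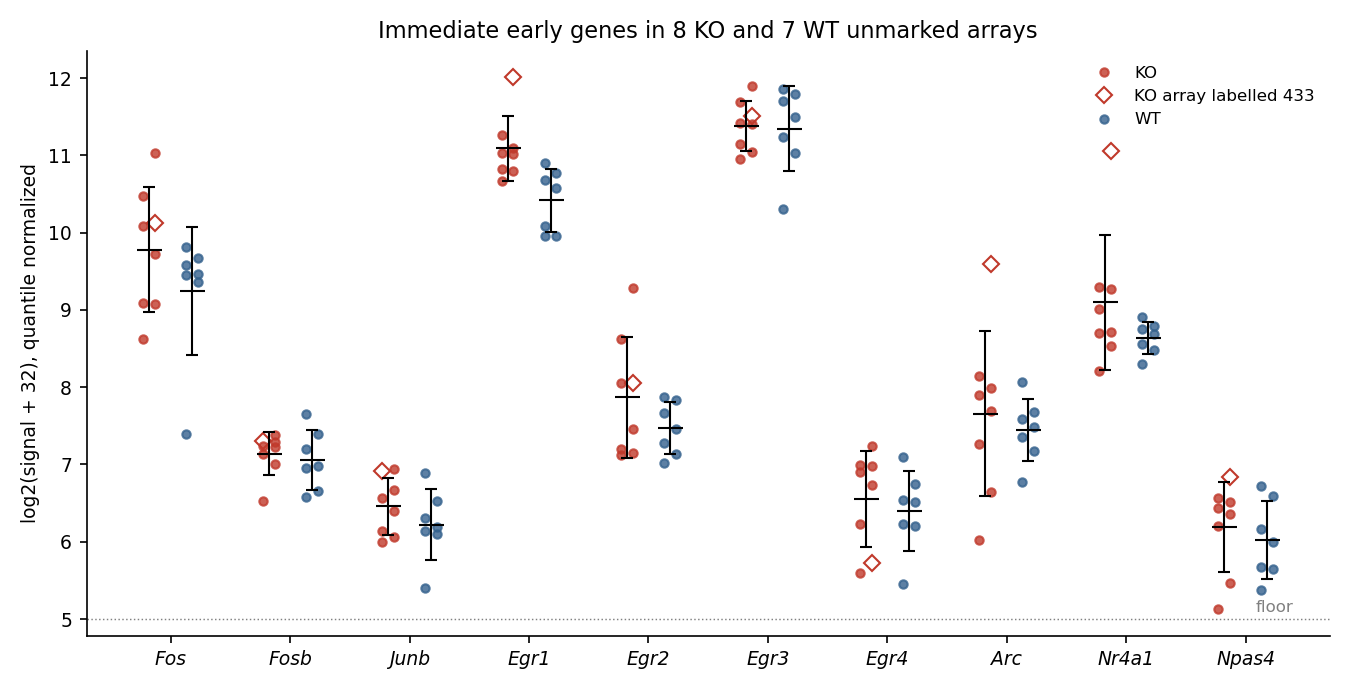
Level of each immediate early gene, by its brightest probe set, as quantile normalized log2(signal + 32) in 8 KO and 7 WT unmarked arrays, with each point an array, the open diamond the KO array labelled 433 and bars the mean ± SD. The genotypes overlap for every gene, and the array labelled 433 is the highest KO array for Egr1, Arc, Nr4a1 and Npas4.

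Among the AP-1 subunits, Fos spread more widely over the arrays than it differed between genotypes. It lay at 8.63 to 11.04 with a median of 9.90 in KO and at 7.40 to 9.82 with a median of 9.46 in WT, with KO 903 the highest array and WT 392 far below the others of its group. The log2 fold change was 0.53 (SE 0.37, 95% interval -0.26 to 1.32, limma), 0.48 without the array labelled 433, 0.35 without KO 903 and 0.22 without WT 392, with exact permutation p = 0.246 for 8 against 7 arrays. Fosb, a Fos paralogue whose truncated form builds up with repeated stimulation, lay at 6.52 to 7.39 in KO and 6.58 to 7.66 in WT (log2 fold change 0.08, SE 0.19, and 0.06 without the array labelled 433). Junb, a dimer partner of both, lay at 6.0 to 6.94 in KO and 5.41 to 6.89 in WT (log2 fold change 0.24, SE 0.21, and 0.17 without that array). Junb was dim on every array. The 95% intervals of Fosb and Junb reached 0.48 and 0.68 on the high side.

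Egr2, better known from myelinating glia of peripheral nerve but also an activity-induced gene of neurons, was read by 2 probe sets that tracked each other (r = 0.864 over 14 arrays). The brighter one lay at 7.12 to 9.28 with a median of 7.76 in KO and at 7.02 to 7.88 with a median of 7.46 in WT. KO 903 and KO 391 were the highest of the 14, and 4 of 8 KO arrays lay above the highest WT array. Its log2 fold change was 0.40 (SE 0.30) with the array labelled 433, 0.37 without it and 0.20 without KO 903, and that of the dimmer probe set was 0.24 with the array labelled 433 and 0.13 without it. Egr3, which acts in the maintenance of synaptic plasticity, had the smallest difference, with levels of 10.96 to 11.90 in KO and 10.30 to 11.86 in WT and a log2 fold change of 0.04 (SE 0.21, 95% interval -0.41 to 0.48). Its 2 probe sets did not track each other (r = -0.434), and 0.07 was the log2 fold change of the dimmer. Without the array labelled 433 the log2 fold changes were 0.02 and 0.05. The brighter Egr3 probe set moved with the 3′ to 5′ ratio of Gapdh, a measure of RNA quality (r = 0.588, permutation p = 0.0267, and rho = 0.675, permutation p = 0.010, over 14 arrays), and r was 0.653 without the arrays farthest from the median of that ratio. This too is 1 of the 80 correlations described above, with p-values unadjusted. That log2 ratio was 5.04 to 6.41 in the 7 KO arrays without 433 and 5.11 to 6.23 in the WT arrays, and with it as a covariate the log2 fold change of Egr3 was -0.02. Egr4, another zinc finger factor of the family, was dim, at 5.60 to 7.23 in KO and 5.45 to 7.10 in WT (log2 fold change 0.15, SE 0.28, and 0.27 without the array labelled 433).

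For Nr4a1 and Arc the array labelled 433 decided most of the difference. Nr4a1 lay at 8.21 to 11.06 with a median of 8.86 in KO and at 8.30 to 8.91 with a median of 8.69 in WT, and the next KO array below 433 was at 9.30. Its log2 fold change was 0.46 (SE 0.31) with that array and 0.18 (SE 0.18, 95% interval -0.19 to 0.55) without it. Arc lay at 6.02 to 9.59 with a median of 7.80 in KO and at 6.78 to 8.07 with a median of 7.48 in WT. Its log2 fold change was 0.21 (SE 0.39) with the array labelled 433 and -0.06 (SE 0.31) without it, so neither value sets a sign. In the larger series without that array it was 0.11 (SE 0.31), and over all 17 arrays, that array included, it was -0.15 (SE 0.41). With the CA13-marked array of 433 in place of the array labelled 433, the log2 fold change was 0.16 for Nr4a1 and -0.13 for Arc. Npas4, which is needed for activity-dependent inhibitory synapse formation, was close to the floor, at 5.13 to 6.84 in KO and 5.38 to 6.73 in WT, with a log2 fold change of 0.16 (SE 0.26) with the array labelled 433 and 0.07 without it. The adjusted p of every member but Egr1 was also 1.00 in limma, with and without that array.

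**Figure D2:**
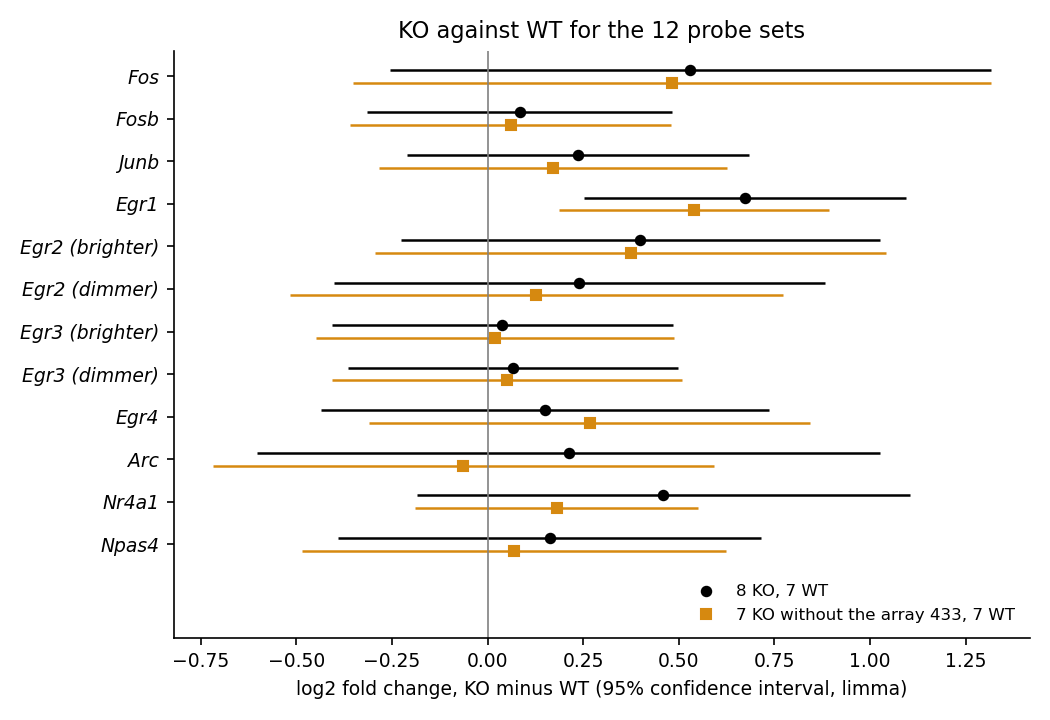
Log2 fold change, KO minus WT, of the 12 probe sets with 95% confidence intervals from limma, over 8 KO and 7 WT arrays (circles) and without the KO array labelled 433 (squares). Only the Egr1 intervals, 0.25 to 1.09 and 0.19 to 0.89, lie wholly above 0, and Arc lies at 0.21 with that array and -0.06 without it.

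The members differed in how far arrays of 1 genotype spread, leaving out the array labelled 433. For Fos the pooled SD was 0.84 on the log2 scale, larger than that of 96.7% of probe sets of like level. Egr2 and Arc were also above most, at 89.8% and 87.8%. Egr1 (44.6%), Nr4a1 (37.4%), Fosb (33.1%) and Junb (29.1%) lay below the middle of their level. The spread of Egr2 was larger among the 7 KO arrays (SD 0.85) than among the 7 WT arrays (SD 0.34), and likewise for Arc (0.79 and 0.41) and Nr4a1 (0.40 and 0.21), while for Egr1 it was 0.21 and 0.41. These differences in spread were not tested.

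Over the 14 unmarked arrays without 433, Fos, Egr2 and Nr4a1 rose and fell together. Pearson's r and Spearman's rho were computed for all 45 pairs of members, and the p-values given for pairs are unadjusted permutation values. Fos and Nr4a1 had r = 0.867 (permutation p = 6.00e-05) and rho = 0.851 (permutation p = 0.000310). Egr2 and Nr4a1 had r = 0.832 (permutation p = 0.000180) and rho = 0.736 (permutation p = 0.00374). Fos and Egr2 had r = 0.83 (permutation p = 0.000430) and rho = 0.895 (permutation p = 0.000110). All 3 genes thus ordered the arrays in much the same way. Of the arrays at the ends of that order, KO 391, KO 390 and WT 392 belong to the smaller series.
The highest arrays were KO 903, with 11.04 for Fos, 9.29 for Egr2 and 9.27 for Nr4a1, and KO 391, with 10.48, 8.62 and 9.30. The lowest were WT 392, with 7.39, 7.02 and 8.30, and KO 390, with 8.63, 7.11 and 8.21. Without the arrays farthest from the median of Fos, WT 392 and KO 903, r was 0.892 for Fos and Nr4a1 and 0.875 for Fos and Egr2. Without the arrays farthest from the median of Egr2, KO 903 and KO 391, r was 0.637 for Egr2 and Nr4a1. The relation held in the 10 arrays of the larger series alone, at 0.864 for Fos and Nr4a1, 0.95 for Fos and Egr2 and 0.794 for Egr2 and Nr4a1, while the 4 arrays of the smaller series are too few for a value of their own. Within each genotype r was above 0, at 0.946 over 7 KO arrays and 0.781 over 7 WT arrays for Fos and Nr4a1. For Fos and Egr2 it was 0.962 and 0.663, and for Egr2 and Nr4a1 0.895 and 0.470, so the last pair was weak in WT. These values include KO 903, KO 391 and WT 392.

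Set against all genes, the likeness within this trio was close. Among 8583 other genes with a mean level of at least 8, Fos was the gene with the highest r to Nr4a1, and Nr4a1 ranked 2 of 8583 for Fos. For Egr2, Nr4a1 ranked 1 and Fos ranked 2 of 8584. For Fos, the 95th percentile of r over all these genes was 0.676, and for Egr2 and Nr4a1 it was 0.440 and 0.530. The gene nearest to Fos was Rnf227 (r = 0.875), followed by Nr4a1, by Tiparp, itself an immediate early gene (0.867), and by Sc5d (0.866) and Capn7 (0.865). Egr2, with a mean level of 7.65, was too dim to be ranked for Fos or Nr4a1, although its r with Nr4a1 was 0.832. Among the ranked genes, nearest to Nr4a1 after Fos were Unkl (0.827) and Pou3f3 (0.822). Nearest to Egr2 after its fellow members were Sap30 (0.827) and Acvr2a (0.774). Of 25 measured genes of a list of further rapid primary response genes, 12 had a mean level of at least 8. Of these 12, 3 were at or above the 95th percentile for Fos, namely Tiparp, the nuclear receptor Nr4a2 (0.822) and the AP-1 subunit Fosl2 (0.788). Ptgs2, the inducible cyclooxygenase of excitatory neurons, was highest for Fos (0.75) among the 12 of 18 measured later effector genes with such a level. Of 10 granule and 6 CA markers with a mean level of at least 8, 0 reached that percentile for any gene of the trio. Few genes reach it by definition, so this count says little. The CA marker Ociad2 came closest, with r = 0.529 against 0.530 for Nr4a1. The 1 microglia and the 1 endothelial marker of that level had r of -0.637 and -0.587 with Fos. With Egr2 these were -0.308 and -0.506, and with Nr4a1 -0.536 and -0.422. The means over all 6 markers of each type gave weaker values. With Fos, r was -0.337 for microglia (permutation p = 0.248) and -0.429 for endothelial markers (permutation p = 0.127), both p-values unadjusted. With Egr2 the means gave -0.227 and -0.421, and with Nr4a1 -0.228 and -0.258.

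The other members followed the trio less closely or not at all. Arc had r = 0.638 with Nr4a1 (permutation p = 0.0141; rho = 0.508, permutation p = 0.0686), and Nr4a1 ranked 18 of 8584 genes for Arc. With Egr2, Arc had r = 0.560 (permutation p = 0.0380; rho = 0.640, permutation p = 0.0156). Arc also had r = 0.614 with Fosb (permutation p = 0.0191; rho = 0.587, permutation p = 0.0302). Egr1 had r = 0.608 with Nr4a1 (permutation p = 0.0212; rho = 0.657, permutation p = 0.0124), and 0.453 without WT 392 and WT 437. Further relations rest on WT 392 and KO 903. Fos and Egr3 had r = 0.744 (permutation p = 0.00322; rho = 0.538, permutation p = 0.0497) and 0.328 without those arrays, while Fos and Egr1 had r = 0.581 (permutation p = 0.0294; rho = 0.473, permutation p = 0.0926) and 0.242 without them. Junb had r of at most 0.07 with any other member and Egr4 of at most 0.22, and both are dim. Their lowest values were with Fosb, at -0.473 for Junb (permutation p = 0.0872) and -0.326 for Egr4 (permutation p = 0.257). For the members outside the trio the nearest gene was in none of the lists, being A930009L07Rik for Egr1 (r = 0.894), Zc2hc1a for Egr3 (0.898), Fam117b for Arc (0.764) and Agpat5 for Fosb (0.773). Over all 45 pairs the median r was 0.25, and 0.10 in the arrays of the larger series alone.

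**Figure D3:**
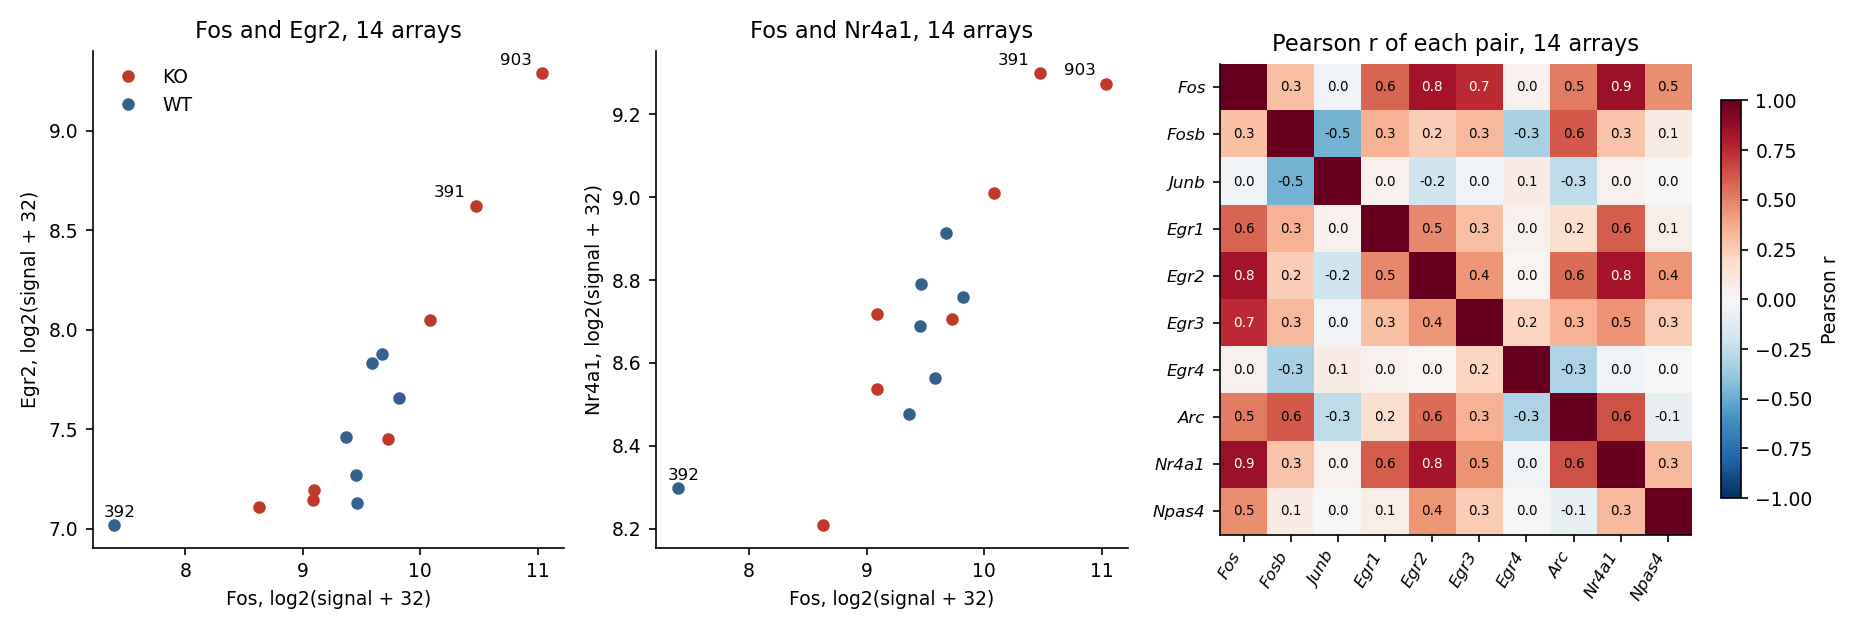
Left and middle, Fos against Egr2 and against Nr4a1, each as log2(signal + 32) in 7 KO and 7 WT unmarked arrays without 433, with 3 arrays named by their marks. Right, Pearson r of each pair of members over the same 14 arrays, where the values among Fos, Egr2 and Nr4a1 are 0.83 to 0.867. The rows of Junb and Egr4 stay at or below 0.22 and reach down to -0.473 and -0.326.

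Both arrays with the CA marker profile had more Nr4a1, Arc and Egr1 than any array with the granule profile, with the smallest margin for Egr1. With all 17 arrays normalized together, Nr4a1 was at 11.43 in the CA13-marked array of 437 and 11.05 in the array labelled 433, against 8.22 to 9.29 in the other 14 unmarked arrays and 8.69 in the CA13-marked array of 433. Arc was at 9.57 and 9.59 in those arrays, against 6.04 to 8.16 in the other 14 and 6.85 in the CA13-marked array of 433. Egr1 was at 12.30 and 12.01, against 9.95 to 11.26 and 10.19. The 2 arrays are of opposite genotype and the values come from 1 array each, so no test was run. In captured tissue, fewer cells of a type and less RNA per cell cannot be told apart.
Within a mark, Nr4a1 was 7.72-fold higher in the CA13-marked array of 437 than in its unmarked array, Arc 6.83-fold, Egr1 5.12-fold, Egr2 3.52-fold and 3.62-fold by its 2 probe sets, and Fos 2.62-fold. Between the arrays of 433, as labelled, the order was turned, the CA13-marked array being lower, at 0.195-fold the unmarked array for Nr4a1, 0.15-fold for Arc, 0.283-fold for Egr1, 0.423-fold and 0.328-fold for Egr2, and 0.39-fold for Fos. Low references enlarge some of these folds. The unmarked array of 437 was at 8.48 for Nr4a1, 6.79 for Arc and 9.95 for Egr1, against medians of 8.71, 7.55 and 10.78 in the 14. For Fos and the brighter Egr2 probe set it was closer, at 9.36 and 7.48 against 9.52 and 7.48. The CA13-marked array of 433 was at 6.82 for that Egr2 probe set, where the lowest of the 14 was 7.04. At least 2-fold higher in the CA13-marked array of 437 were 6 of 12 member probe sets, against 6.55% of all probe sets. At least 2-fold lower in the CA13-marked array of 433 were 6 of 12, against 6.05%. The same 6 probe sets, of Fos, Egr1, Egr2, Arc and Nr4a1, met both, against 1.91% of all. The median log2 difference of the 12 was 0.95 for 437 and -0.95 for 433, against 0.00 and 0.00 for all probe sets.

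Not every member took this pattern. The co-varying trio, Fos, Egr2 and Nr4a1, met both fold rules, but a comparison with the range of the other arrays divided it. Only Egr1, Arc, Nr4a1 and Npas4 lay above each of the other 14 unmarked arrays in both arrays with the CA profile, 4 of 12 probe sets against 5.57% of all, and Npas4 did so by a small margin, at 6.89 and 6.86 against at most 6.74. Fos, at 10.75 and 10.12, lay within the range of the other 14 arrays, 7.41 to 11.03, so KO 903 had more Fos than either. The brighter Egr2 probe set was at 9.30 in the CA13-marked array of 437, level with the highest of the 14 at 9.28, and at 8.06 in the array labelled 433. Its dimmer probe set was at 9.34 and 8.44 in these arrays, against at most 8.88 in the 14. Egr3 was 1.43-fold higher in the CA13-marked array of 437 than in the unmarked one, and 0.97-fold between the arrays of 433. Egr4 went the other way, at 6.03 and 5.74, both within the range of the other 14, against 6.90 in the CA13-marked array of 433 and 6.76 in the unmarked array of 437. Fosb and Junb stayed within the range of the 14 in the array labelled 433 and in both CA13-marked arrays. The unmarked array of 437 is itself among those 14.

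**Figure D4:**
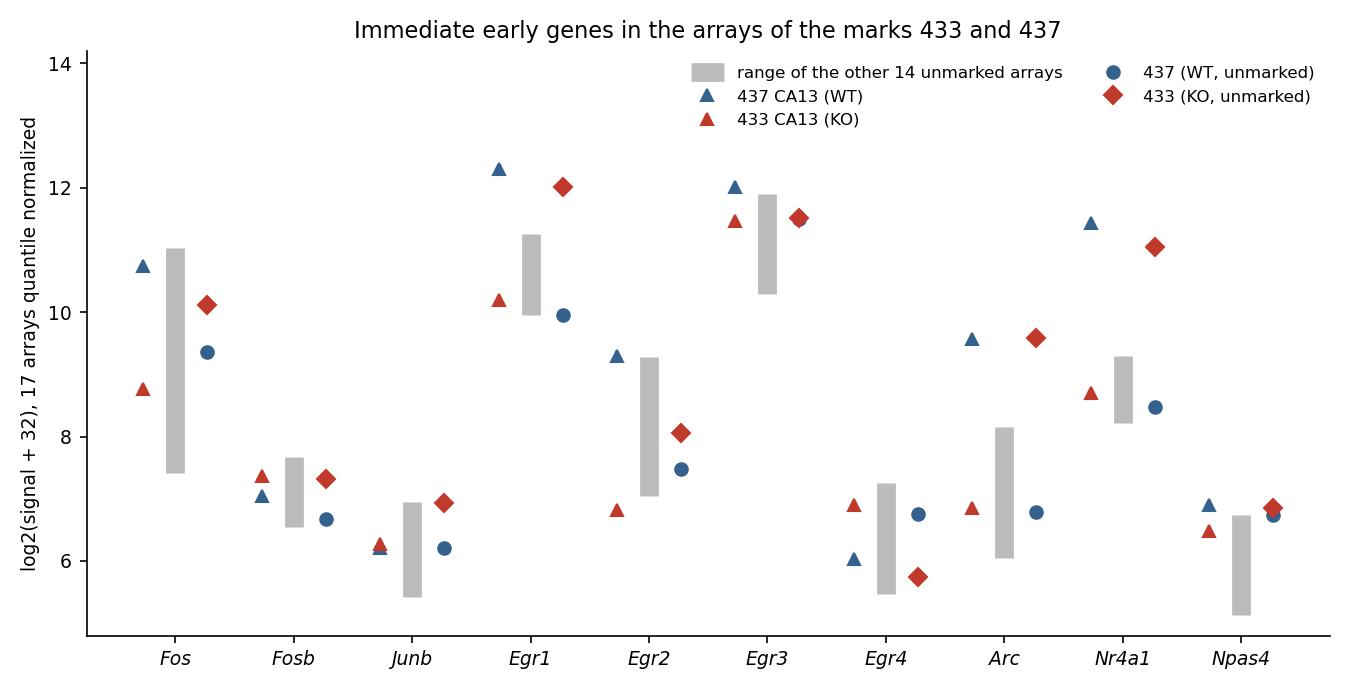
Levels as log2(signal + 32), with 17 arrays normalized together, in the CA13-marked arrays of 437 and 433 (triangles, left), the unmarked arrays of 437 and 433 (circle and diamond, right) and the range of the 14 unmarked arrays other than 433 (grey bars). Nr4a1, Arc and Egr1 lie at 9.57 to 12.30 in the CA13-marked array of 437 and the array labelled 433, above the grey bars, while Fosb and Junb lie within them.

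Further activity-regulated genes were read from 3 lists by 1 probe set per gene, the brightest, over 18193 genes. Between the genotypes 0 genes of these lists passed the adjusted test in limma. At an unadjusted p under 0.05, 1 of 25 further rapid primary response genes was higher in KO, 3 of 18 later effector genes were, and 1 of 18 measured upstream regulators and partners was, against 1.53% of all genes. Lower in KO were 0 in each list, against 1.52%. The genes were Klf10, a TGF-beta-inducible zinc finger factor (log2 fold change 0.37), Ptgs2 (0.73), the activity-induced kinase Plk2 (0.41), the ERK phosphatase Dusp6 (0.85), and Nab2, a corepressor of the Egr proteins (0.40). The median log2 fold change was 0.12 for the rapid list, 0.10 for the later list and -0.02 for the upstream list, against 0.01 for all genes, and without the array labelled 433 it was 0.06, 0.06 and 0.02, against 0.01. Without the array labelled 433, Klf10 (0.34), Ptgs2 (0.68) and Nab2 (0.36) stayed at a p under 0.05, against 1.80% of all genes higher, while Plk2 (0.31) and Dusp6 (0.56) did not. Jun, an AP-1 subunit and dimer partner of Fos, was then lower at -0.27 (unadjusted p = 0.0321 in limma), against 1.75% of all genes lower, and with that array its log2 fold change was -0.59 (unadjusted p = 0.0781).

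Relatives of the members also stood out in the arrays with the CA profile. Nr4a3 was at 12.34 in the CA13-marked array of 437 and 12.16 in the array labelled 433, against 8.16 to 9.63 in the other 14, and Nr4a2 was at 12.64 and 12.25, against 7.69 to 11.13. In the rapid list 5 of 25 genes lay above each of the other 14 arrays in both, in the later list 7 of 18 and in the upstream list 2 of 18, against 7.26% of all genes. Beside Nr4a2 and Nr4a3, those of the rapid list were Dusp1, Klf10 and Gadd45b, and those of the upstream list were Crem and Camk4. The later list gave the phosphatases Dusp6 (9.48 and 9.29, against 5.41 to 7.38) and Dusp5 (8.30 and 7.67, against 5.87 to 6.76), the synaptic scaffold gene Homer1 (13.03 and 12.68, against 10.79 to 12.28), the neuronal pentraxin Nptx2, the neuropeptide precursor gene Vgf, Plk2, and the prohormone convertase Pcsk1.
The opposite order was found too. In the rapid list 4 of 25 genes, Jun, Atf3, Btg2 and Sik1, lay below each of the other 14 arrays in both, in the upstream list 2 of 18, Elk1 and Mef2c, and in the later list 0 of 18, against 5.94% of all genes. Jun was at 9.66 in the CA13-marked array of 437 and 9.11 in the array labelled 433, against 11.50 to 12.15 in the other 14, and at 11.52 in the CA13-marked array of 433. Mef2c, a transcription factor activated by calcium signalling, was at 11.27 and 11.10, against 13.13 to 14.03. The arrays rich in Nr4a1, Arc and Egr1 were thus the arrays poor in Jun and Mef2c. Bdnf, the neurotrophin gene most often measured beside these, was at 10.66 and 10.67, within the 9.78 to 10.95 of the other 14.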

How the data were processed

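The authors deposited linear intensity values, 1 for each probe set on each array (17 columns, all used). MAS5 is named in the submitters' processing notes, RMA and SAM in the study's methods. The trimmed mean leaving out 2% at each end was 500 on every array. No source used here gives the build for the probe sets.

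The design assumed RMA values if they were on a log scale, so the path for linear values was taken. Leaving out 64 control probe sets, 32 was added before log2, which understates fold changes of dim genes, and the 15 unmarked arrays were quantile normalized. Genotype alone was fitted by limma 3.58.1 (R 4.3.3, eBayes with an intensity trend) over 45037 probe sets, with Benjamini-Hochberg adjustment and a threshold of 0.05. Exact permutation tests were two-sided. With 8 KO and 7 WT arrays they ran over all 6435 splits, with 0.00016 the smallest p these allow. Without the array labelled 433 they ran over all 3432 splits. Levels of CA13-marked arrays come from 17 arrays normalized together, with no test. Correlations used 14 arrays, with 100000 resamples. Genes like a member were the 5 with the highest r among genes with a mean level of at least 8. Where a gene has several probe sets, the brightest stands for it. Of the mouse probe sets, 34945 carry 1 symbol, 932 several, and 9160 none, and none with several was used.

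The median intensity per array was 92.6 to 116.5 in KO and 88.1 to 112.0 in WT, and the number of arrays limits the precision. The members and lists were chosen with earlier results of these data known. All 12 member probe sets and up to 4 genes per list with the smallest p were to be named, and other list genes were named after their values were seen. List genes without a probe set of their symbol alone were not used here. In simulated data with 200 of 45037 probe sets changed, limma called 11.9% at a 1.41-fold change, 68.7% at 2-fold and 95.5% at 4-fold, and 8 of 125 calls were false. Alternatives covered scaling, pseudocount, leaving out dim probe sets, the choice of arrays, array series, RNA quality, array weights, the variance trend, SAM, the methods' t-test and leaving out each array.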

Additional observations from a re-analysis of the deposited data

Results flagged for a closer look

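In 24 groups of arrays, a member probe set in 1 genotype each, 5 had an array far from the others of its group by Dixon's ratio, where chance gives about 1 in 20 groups. The KO array labelled 433 was the highest for Egr1, at 12.01 with the next KO array at 11.27, and for Nr4a1, at 11.06 with the next at 9.30. That array also had the CA marker profile described above (CA marker mean 10.51, granule marker mean 8.13), and the part of this in both values was not tested. WT 392 was the lowest for Fos, at 7.40 with the next WT array at 9.36, and for the dimmer Egr2 probe set, at 6.57 with the next at 7.35. Its granule and CA marker means, 11.55 and 8.42, lay within the range of the other arrays. Its microglia and endothelial marker means, 8.04 and 7.32, were the highest of the 14 arrays without 433, where the lowest were 7.38 and 6.58, and their part in its values was not tested. KO 390 was the lowest for Fosb, at 6.52 with the next KO array at 7.01.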

How the results depend on the processing

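The number of member probe sets called was 0 in all 27 alternatives. Of all probe sets 6 were called, 3 to 8 when each array was left out in turn (3 without WT 437) and 4 to 8 otherwise. Of 309 alternative values for single members, 289 kept their direction and 20 were reversed, and the lowest adjusted p was 0.927, for Egr1, whose log2 fold change stayed between 0.34 and 0.75. Fos, Junb, Egr1, Egr2 and Nr4a1 were above 0 in every alternative run. Egr3 was -0.017 with RNA quality as a covariate, -0.036 over all 17 arrays, -0.054 with array weights, -0.142 in the larger array series alone and -0.158 there without 433, and -0.135 to 0.125 on leaving out each array. Arc was -0.133 with the CA13-marked array of 433 in place of the unmarked one, -0.146 over 17 arrays, -0.064 with the series as a block and 433 left out, and -0.518 in the smaller series alone. On leaving out each array Arc was -0.064 to 0.444, and among these fits it was below 0 only without 433. Npas4 was -0.021 with array weights and -0.041 in the larger series without 433. Egr4 was -0.223 in the larger series, -0.087 there without 433, and -0.0077 to 0.286 on leaving out each array. Fosb was -0.342 in the smaller series. The cause of these changes was not tested. The median r of the 45 pairs, 0.252, was 0.102 in the larger series without 433 and 0.171 to 0.289 on leaving out each array. The fits within a series, and with the series as a block without 433, were chosen after seeing the data. The filter on dim probe sets removed Junb, Egr4 and Npas4. No paired analysis was possible because the replicate numbers come from accession order and pair nothing. Dim signals limit Junb, Egr4 and Npas4 most.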
